A study of Homo sapiens with 4 samples.

Results

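The genes described here are 10 genes of the actin and contractile cytoskeleton, namely the smooth-muscle actin ACTA2, the actin-binding proteins TAGLN, CNN1, CNN3 and CALD1, the tropomyosins TPM1 and TPM2, the myosin light chains MYL9 and MYL6, and the crosslinker ACTN1. They were chosen by name, with earlier results of these data known, and their symbols were matched to Ensembl gene identifiers with GENCODE 29, which found all 10 among the 32991 genes listed in every library. They were measured by 10x Genomics droplet single-cell RNA sequencing, which counts transcript molecules by their unique molecular identifiers (UMIs), in A375, an established human melanoma cell line that carries BRAF V600E. On GRCh38 the genes lie apart from each other, with ACTA2 at chr10:88935074-88991339, TAGLN at chr11:117199321-117204782, CNN1 at chr19:11538717-11550323, CNN3 at chr1:94896949-94927278, CALD1 at chr7:134744252-134970728, TPM1 at chr15:63042632-63071915, TPM2 at chr9:35681992-35690121, MYL9 at chr20:36541484-36551447, MYL6 at chr12:56158161-56163496 and ACTN1 at chr14:68874143-68979440. The S library held untreated cells. The RV library held cells made resistant to vemurafenib, an inhibitor of mutant BRAF, the RVC library cells made resistant to vemurafenib together with cobimetinib, and the RVT library cells made resistant to vemurafenib together with trametinib, both partners being inhibitors of the kinases MEK1/2. Resistance had been raised by 10 to 14 days at 0.5 times the IC50, drugs were withdrawn 24 h before capture, and 10000 cells were loaded per library. Each condition was a sole library, so differences between conditions have no replicate check, no p-value is given, and all intervals (95%, exact) cover counting error only.

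Actin filaments slide against bipolar filaments of non-muscle myosin II, and this pull gives a cell its tension, its shape and its grip on the substrate. Tropomyosins, calponins, transgelin and caldesmon lie along the filament and govern what else may bind it, myosin light chains control the motor, and alpha-actinin ties filaments into bundles. ACTA2, TAGLN, CNN1 and MYL9 are best known as markers of smooth muscle and of contractile fibroblasts, many of them switched on by serum response factor with its partners of the myocardin family, while TPM1, TPM2, CNN3, CALD1, MYL6 and ACTN1 are also made by many cultured cells that are not muscle.

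The filtered libraries held 4177 to 8444 cells, with a median of 11550 UMIs per cell in RV, 8792 in S, 3940 in RVC and 2843 in RVT. Libraries shared 36 to 105 cell barcodes pairwise, at most 1.38% of a library, and leaving these cells out moved no member's ratio beyond its counting interval. S and RV list the same genes, as do RVC and RVT, but 703 genes were listed only by the former pair and 547 only by the latter. Ratios of RVC or RVT to S also followed the base composition of the transcript end. Levels are given in CPM, the UMIs of a gene scaled to 1000000 UMIs of its library. Among the 6507 genes whose mean level over the libraries reached 10 CPM, the median log2 ratio of RVC to S was 0.65 in the bin of genes with the lowest GC content in their last 500 bases and -2.38 in the highest bin, and that of RVT to S was 0.79 and -2.36, whereas RV to S stayed between -0.01 and 0.07 in all 20 bins. The median of RVT to RVC varied less but also with GC content. It was 0.39 and 0.58 in the lowest and second lowest bins, and -0.24 and -0.01 in the second highest and highest. Whether a difference of RVC or RVT from S comes from the drugs or from such differences between the libraries cannot be told apart. RV against S and RVT against RVC are the comparisons between libraries that list the same genes. TMM scaling, which assumes that most genes do not differ, would lower every log2 ratio to S by 0.04 for RV, by 0.22 for RVC and by 0.52 for RVT. The 10 melanocyte and melanoma markers summed to 145.5, 77.9, 19.4 and 84.4 CPM in the order S, RV, RVC, RVT, and 5, 5, 4 and 5 of them reached 1 CPM. MLANA, TYR and DCT did not exceed 3 UMIs in any library. MITF, the master regulator of melanocytes, was at 9.71, 20.2, 8.14 and 41.3 CPM, and TYRP1, an enzyme of pigment synthesis, had 4, 1, 156 and 42 UMIs. SOX10, a transcription factor of the lineage, was at 86.5 CPM in S, 39.9 in RV and 19.5 in RVT but had no UMI in RVC, where 3 UMIs would be 0.0914 CPM and the exact upper limit is 0.112 CPM. S100B, another lineage marker, was at 32.9 CPM in S and 6.97 in RV, with 7 UMIs in RVT and none in RVC. The library labelled RVC held 121.9 CPM of the fibrillar collagen COL3A1, of which S and RV had no UMI and RVT 7.63 CPM. The authors state that the identity of their A375 cells had been checked before the experiments began. Whether the culture labelled RVC is the same line was not tested here, and every ratio to or from RVC rests on that label, whereas RV to S and RVT to S do not use it.

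ACTA2, the actin of smooth muscle and of contractile fibroblasts, was the member that differed most between S and RV. S had 7.56 CPM (95% interval 6.87 to 8.29), RV 23.0 (21.7 to 24.3), RVC 5.91 (5.11 to 6.80) and RVT 3.16 (2.51 to 3.94). RV thus stood far above the other libraries, RVT was lowest, and the intervals of S and RVC lay next to each other without overlapping. The ratio of RV to S was 3.04 (2.72 to 3.40), a log2 ratio of 1.60, and only 0.569% of the 6507 genes had a higher one. ACTA2 itself lay just outside that set, its mean over the libraries being under 10 CPM. RVT was 2.39-fold lower than S (1.88 to 3.07) and 1.87-fold lower than RVC (1.43 to 2.46), and 20.6% and 13.6% of genes had lower ratios.

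RefSeq places 2 start sites of ACTA2 on chromosome 10 within the GENCODE gene at chr10:88935074-88991339, and their windows of 250 bases before to 50 after the start (GRCh38.p14) are shown because they hold different binding motifs. In the outer window the capitals mark 2 decamers of the p53 half-site, which begin 219 bases before and 19 bases after the start. In the inner window they mark, in order, the reverse complement of an MCAT core (CATTCC, bound by TEAD factors) and 2 CArG boxes, the element of serum response factor, each with 1 base other than A or T in its core, beginning 121 and 71 bases before the start.
ACTA2 outer start at chr10:88991288-88991587, minus strand: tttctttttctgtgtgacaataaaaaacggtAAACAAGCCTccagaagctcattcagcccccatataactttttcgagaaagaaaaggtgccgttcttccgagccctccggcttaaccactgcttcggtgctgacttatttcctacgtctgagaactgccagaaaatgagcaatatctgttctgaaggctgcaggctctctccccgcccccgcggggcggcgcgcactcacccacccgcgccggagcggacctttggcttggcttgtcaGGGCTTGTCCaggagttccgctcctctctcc
ACTA2 inner start at chr10:88952724-88953023, minus strand: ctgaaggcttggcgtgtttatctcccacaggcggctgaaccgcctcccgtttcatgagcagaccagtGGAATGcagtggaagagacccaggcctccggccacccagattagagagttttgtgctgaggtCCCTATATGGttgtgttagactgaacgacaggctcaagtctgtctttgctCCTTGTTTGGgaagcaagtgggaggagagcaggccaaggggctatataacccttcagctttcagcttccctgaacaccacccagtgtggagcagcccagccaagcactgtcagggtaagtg
The p53 half-site was found in 6.63% of all 35116 RefSeq windows, the CArG box with at most 1 such base in 8.13%, the strict CArG box in 1.29% and the MCAT core in 14.0%, in either orientation. These motifs beyond the strict CArG box were chosen after the values of ACTA2 had been seen, and UMIs counted at transcript ends do not tell which start was used.

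Within the libraries ACTA2 UMIs were found in a minor part of the cells. At least 1 UMI was found in 15.4% of RV cells (14.3 to 16.5), 5.29% of S cells, 2.35% of RVC cells and 0.936% of RVT cells. After every cell had been thinned to 1500 UMIs, which removes the difference in depth but leaves out 398 shallower cells of RVC and 846 of RVT, the shares were 3.04% (2.54 to 3.61) in RV, 0.789% (0.586 to 1.04) in S, 0.969% (0.756 to 1.22) in RVC and 0.566% (0.410 to 0.762) in RVT. RV remained apart from the rest, and the intervals of S, RVC and RVT all overlapped. The variance of thinned ACTA2 UMIs over their mean was 1.22 in RV, 1.07 in S, 0.990 in RVC and 1.04 in RVT. Counting alone gives about 1, and RV lay furthest above it. Without thinning, 44 RV cells with 5 or more ACTA2 UMIs, 1.05% of the library, held 32.0% of its ACTA2 UMIs, and the highest cell had 23. Such cells were not compared between libraries, whose depths differ. All cells were labelled as the same line, without a cell type known to lack these genes, so the share of UMIs from free RNA could not be measured.

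In S and RV, ACTA2 went together with CDKN1A, the p21 inhibitor of cell-cycle kinases. Across RV cells the Pearson correlation of log(1 + UMIs per 10000) between ACTA2 and CDKN1A was 0.43, the highest among 3802 genes compared, and it was followed by SUGCT (0.39), ABCB9 (0.37), MDM2 (0.37) and RPS27L (0.37). In S the list was CDKN1A (0.29), RPS27L (0.25), FDXR (0.21), MDM2 (0.21) and NEAT1 (0.19). CDKN1A, MDM2, RPS27L and FDXR are textbook targets of p53. In RVC and RVT the correlation of ACTA2 with CDKN1A was 0.03 and 0.05, at levels where few cells held an ACTA2 UMI at all.

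Classes of cells by their CDKN1A UMIs after thinning, a split chosen after this correlation was seen, gave the size of the link. In RV, ACTA2 went up with each class, being 12.6 CPM (11.5 to 13.7) in 3298 cells without a CDKN1A UMI, 41.1 in 592 cells with 1, 66.8 in 141 cells with 2 and 111.2 (97.6 to 126.1) in 146 cells with 3 or more, an 8.82-fold range (7.54 to 10.3). In S the same classes held 4.92, 23.7, 35.4 and 53.1 CPM, a range of 10.8-fold (7.39 to 15.3). RVC had 5.46, 7.44, 8.52 and 16.6 CPM in these classes, and RVT 2.59, 5.54 and 15.7 in the first 3, its top class being 31 cells without an ACTA2 UMI. Cells with 3 or more CDKN1A UMIs made up 3.50% of RV and 0.884% of S. Within each class RV exceeded S, by 2.56-fold (2.2 to 2.99) without a CDKN1A UMI and 1.73-fold (1.39 to 2.17) with 1. The ratio was 1.89 (1.31 to 2.78) with 2 and 2.10 (1.47 to 3.06) with 3 or more. These classes do not hold CDKN1A equal, since thinning can leave no CDKN1A UMI in a cell that holds some. CDKN1A itself was 2.43-fold higher in RV than in S (2.36 to 2.51). Before thinning, 642 RV cells had an ACTA2 UMI, and 554 of them also had a CDKN1A UMI. CDKN1A was at 248 CPM in RV, where genes of like level were found in most unthinned cells. TPM1, at 216.5 CPM, was in 81.5% of them and the tropomyosin TPM3, at 225.1 CPM, in 88.9%. The count alone is therefore no measure of the link. An excess of ACTA2 beyond CDKN1A was not tested. TPM1 went the other way in the same RV classes, from 231.9 to 113.0 CPM, and the correlation of ACTA2 with TPM1 was -0.12.

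**Figure D1:**
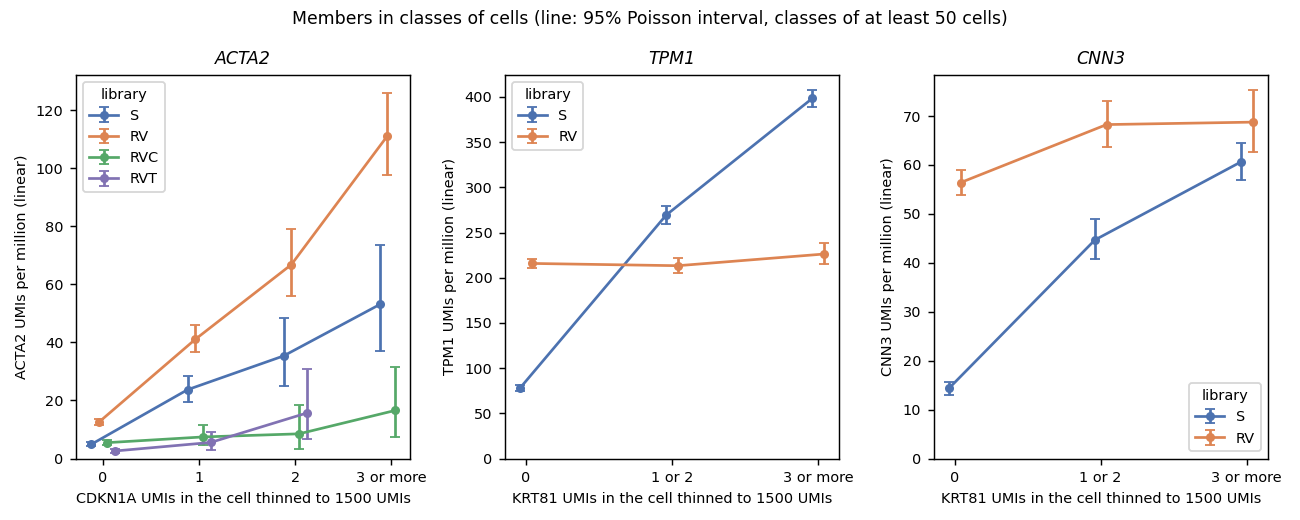
ACTA2 in cells grouped by CDKN1A UMIs, and TPM1 and CNN3 in cells grouped by KRT81 UMIs, in CPM on linear axes; points are class values, vertical lines 95% Poisson intervals and colours libraries, with classes under 50 cells left out. ACTA2 is highest in the top CDKN1A class, at 111.2 CPM in RV and 53.1 in S, while TPM1 goes with KRT81 in S, from 78.1 to 398.3 CPM, and lies between 213.3 and 226.2 in RV.

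ACTA2 shares bases with FAS, STAMBPL1 and ACTA2-AS1, all on the opposite strand, and whether counting used the strand is not given in the sources used here. FAS, a death receptor and another p53 target, was like ACTA2 higher in RV than in S, by 1.82-fold (1.59 to 2.07), and lower in RVT, by 1.56-fold from S (1.25 to 1.97) and 5.09-fold from RVC (4.13 to 6.33). In RVC it was 3.26-fold higher than in S (2.86 to 3.71), where ACTA2 was 1.28-fold lower (1.08 to 1.52). STAMBPL1, a deubiquitinase, was 1.23-fold higher in RV than in S (1.12 to 1.36), with a ratio of 1.01 in RVC (0.902 to 1.14), and in RVT it was 3.08-fold lower than S (2.52 to 3.79) and 3.12-fold lower than RVC (2.54 to 3.88). The correlation of FAS with ACTA2 across RV cells was 0.23. The antisense RNA had no UMI in S, RV or RVC and 1 in RVT. What the overlap adds to the ACTA2 counts was not tested.

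The filament-binding proteins fell into scarce and plentiful members. TAGLN, or transgelin, was seen with 39 to 84 UMIs per library. S had 1.44 CPM (1.15 to 1.78), RV 1.22 (0.941 to 1.56), RVC 1.19 (0.845 to 1.62) and RVT 3.20 (2.54 to 3.98). RVT lay above the other libraries, whose intervals overlapped. It exceeded RVC 2.69-fold (1.82 to 4.06) and S 2.23-fold (1.62 to 3.06), ratios topped by 6.81% and 24.8% of genes. The TAGLN transcript end has 61.8% GC, in the highest bin, and centring on that bin changed the log2 ratio of RVT to S from 1.16 to 3.51 and that of RVC to S from -0.27 to 2.11, while RVT to RVC was 1.43 before and 1.44 after. TAGLN shares bases with PCSK7, which lies on the opposite strand and was at 62.2 CPM in RVC. What this overlap adds to the TAGLN counts was not tested. CNN1, the smooth-muscle calponin, was rarer still, with 39, 43, 14 and 2 UMIs in the order S, RV, RVC, RVT, or 0.667, 0.821, 0.427 and 0.0791 CPM. Only the RVT value (0.00958 to 0.286) stood clear of S and RV, and it rested on 2 UMIs, so that its ratio to S, 0.119, had an interval of 0.0139 to 0.458.

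CNN3, the calponin of non-muscle cells, was far better measured and differed in every comparison. S had 32.9 CPM (31.4 to 34.4), RV 60.8 (58.7 to 62.9), RVC 16.2 (14.8 to 17.6) and RVT 52.6 (49.8 to 55.5), so none of the intervals met. RV exceeded S 1.85-fold (1.75 to 1.96), a ratio topped by 2.44% of genes. The doubly treated libraries parted, RVC being 2.03-fold lower than S (1.84 to 2.24) and RVT 1.60-fold higher (1.49 to 1.72), and RVT exceeded RVC 3.25-fold (2.94 to 3.60), which 4.06% of genes surpassed. Its transcript end is low in GC (30.0%), and centred on its GC bin the log2 ratio was -0.10 for RVT to S, -1.45 for RVC to S and 1.12 for RVT to RVC. Thinned to 1500 UMIs, 8.55% of RV cells, 7.80% of RVT, 4.18% of S and 2.42% of RVC cells held a CNN3 UMI. The lower level in RVC did not hold in cells without any UMI of the cell-cycle genes, of which RVC had 421, where the log2 ratio of RVC to S was 0.04 instead of -1.02. CALD1, caldesmon, varied least of the filament binders. S had 115.7 CPM (113.0 to 118.5), RV 102.1 (99.4 to 104.9), RVC 155.5 (151.2 to 159.8) and RVT 127.8 (123.5 to 132.3). The widest of its 4 ratios was 1.34-fold, for RVC to S, and on centring in GC bins its log2 ratio of RVC to S went from 0.43 to -0.15 and that of RVT to S from 0.14 to -0.70.

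The 2 tropomyosins, which coil along the filament, differed little between RV and S and were lower in both doubly treated libraries. For TPM1, S had 202.8 CPM (199.2 to 206.5), RV 216.5 (212.6 to 220.6), RVC 144.1 (140.0 to 148.3) and RVT 125.7 (121.3 to 130.1). RV exceeded S 1.07-fold (1.04 to 1.10), and RVC and RVT were 1.41-fold (1.36 to 1.46) and 1.61-fold (1.55 to 1.68) lower than S. Of all genes, 33.1% had a lower ratio of RVC to S than TPM1, and 29.7% a lower ratio of RVT to S. For TPM2, S had 499.6 CPM (493.9 to 505.3), RV 531.6 (525.3 to 537.8), RVC 120.2 (116.4 to 124.0) and RVT 196.5 (191.1 to 202.0). It was 4.16-fold lower in RVC than in S (4.02 to 4.30) and 2.54-fold lower in RVT (2.47 to 2.62), and RVT exceeded RVC 1.63-fold (1.57 to 1.70). Of all genes, 10.0% had a lower ratio of RVC to S and 19.3% a lower ratio of RVT to S than TPM2. A TPM2 UMI was found in 51.7% of thinned S cells, 53% of RV cells, 15.9% of RVC cells and 25.4% of RVT cells. Centring in GC bins left the log2 ratio of TPM2 at -1.76 for RVC to S and brought that for RVT to S to -0.90, which is under 2-fold.

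The light chains were higher than in S in both doubly treated libraries. MYL9 is a regulatory light chain of smooth-muscle and non-muscle myosin. S had 8.32 CPM (7.60 to 9.10), RV 5.84 (5.21 to 6.54), RVC 19.3 (17.8 to 20.8) and RVT 12.4 (11.1 to 13.8). The intervals did not meet in any pair. It was lower in RV than in S by 1.43-fold (1.23 to 1.65), a ratio below which only 5.03% of genes fell. In RVC it was 2.31-fold higher than in S (2.05 to 2.61), which 16.3% of genes surpassed. In RVT it was 1.49-fold higher than in S (1.29 to 1.72), a log2 ratio of 0.57. Under other cell filters, scalings and weights that log2 ratio lay between 0.06 and 1.02, the latter centred in GC bins. MYL6 is the essential light chain. S had 587.4 CPM (581.2 to 593.6), RV 677.5 (670.5 to 684.6), RVC 3346 (3326 to 3366) and RVT 3293 (3271 to 3315). RVC and RVT had nearly the same level, 5.70-fold (5.63 to 5.77) and 5.61-fold (5.54 to 5.68) above S, and 2.01% and 4.19% of genes had a higher ratio. MYL6 took 39.0% of the UMIs of the 10 members in S and 40.6% in RV, against 86.9% in RVC and 85.7% in RVT, so that any sum over the members in RVC and RVT is largely MYL6. In cells thinned to 1500 UMIs, S had a MYL6 UMI in 55.2% of cells, RV in 62.8%, RVC in 98.5% and RVT in 97.7%. MYL6 overlaps MYL6B, another light chain, on the same strand, and MYL6B was itself 2.40-fold higher in RVC than in S and 1.21-fold higher in RVT. The step in MYL6 falls exactly between the libraries with different gene lists, and how these lists treat reads of the overlap is not given in the sources used here.

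ACTN1 is the alpha-actinin of stress fibres and adhesion sites. S had 49.2 CPM (47.4 to 51.0), RV 51.2 (49.2 to 53.1), RVC 41.5 (39.3 to 43.7) and RVT 29.1 (27.1 to 31.3). The ratio of RV to S was 1.04, with an interval that spanned 1 (0.987 to 1.10), and RVT was 1.69-fold lower than S (1.55 to 1.83) and 1.42-fold lower than RVC (1.30 to 1.56). Of all genes, 28.55% had a lower ratio of RVT to S than ACTN1, and 23.5% a lower ratio of RVT to RVC. Of the members with a RefSeq window, ACTN1 alone had a strict CArG box, in 1 of its 4 RefSeq windows on the minus strand of chromosome 14 (GRCh38.p14). It is shown for that box, which begins 171 bases before the start and is followed by an MCAT core 154 bases before it, both in capitals.
ACTN1 internal start at chr14:68977517-68977816, minus strand: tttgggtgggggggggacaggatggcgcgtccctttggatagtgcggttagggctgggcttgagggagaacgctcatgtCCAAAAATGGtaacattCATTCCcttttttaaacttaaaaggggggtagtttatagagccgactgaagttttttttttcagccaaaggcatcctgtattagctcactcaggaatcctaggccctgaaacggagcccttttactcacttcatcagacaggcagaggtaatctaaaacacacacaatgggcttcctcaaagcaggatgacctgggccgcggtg
Windows were found for 8 of the 10 members, 17 in all. A CArG box with at most 1 other base in the core was in 1 window each of ACTA2, CALD1 and ACTN1, an MCAT core in windows of ACTA2, CNN3, CALD1 and ACTN1, and a p53 half-site in 1 window of ACTA2 and 2 of CALD1. TAGLN and MYL9 had no entry in the set of windows used here.

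**Figure D2:**
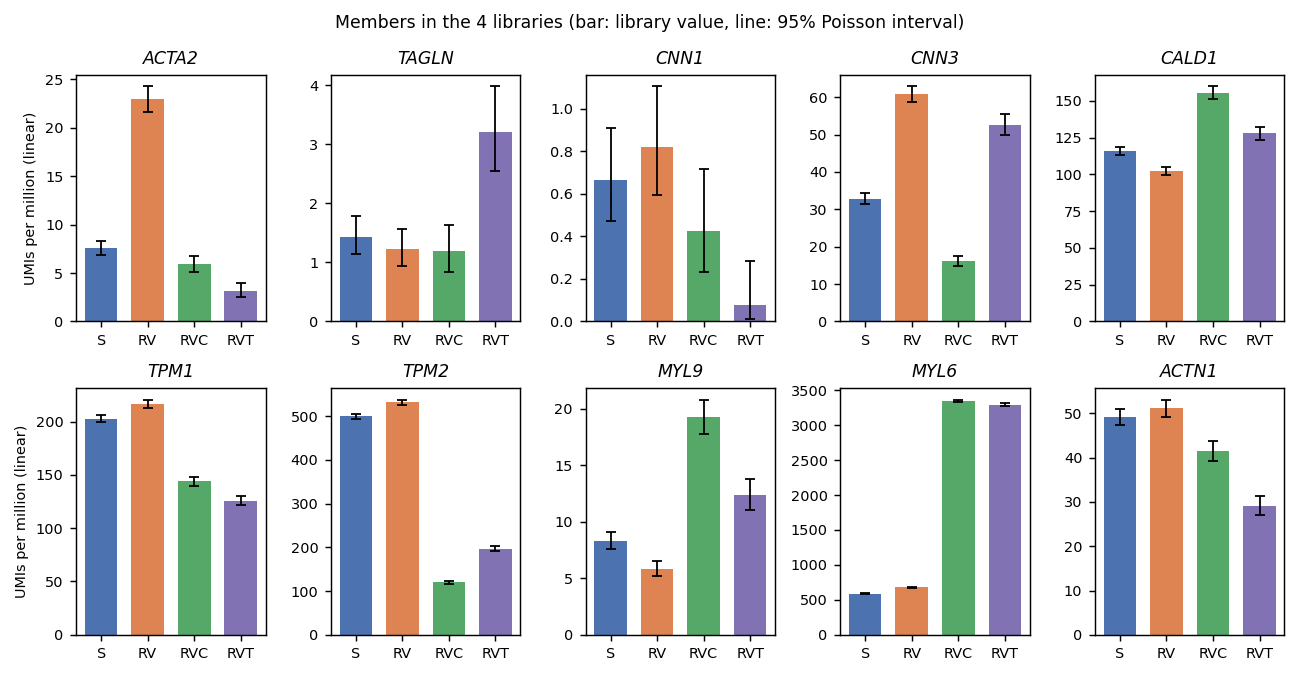
Level in CPM of each member in the 4 libraries, on linear axes from 0 with a scale of its own per gene; bars are library values and black lines 95% Poisson intervals of 1 library each. ACTA2 and CNN3 peak in RV at 23.0 and 60.8, MYL6 and MYL9 are highest in RVC at 3346 and 19.3, and TPM2 is lowest in RVC at 120.2.

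Counted together, 7 members reached a mean of 10 CPM (all but ACTA2, TAGLN and CNN1). From S to RV none of the 7 differed 2-fold, beside 1.92% of all genes at least 2-fold higher and 1.24% at least 2-fold lower, and their median log2 ratio was 0.09 beside 0.02 for all genes. From S to RVC, MYL9 and MYL6 were at least 2-fold higher and CNN3 and TPM2 at least 2-fold lower, where 22.5% of all genes were higher and 23.2% lower, and the medians were -0.24 and 0.16. From S to RVT, MYL6 was higher and TPM2 lower, beside 28.5% and 24.3% of all genes, with medians of 0.14 and 0.22. From RVC to RVT, CNN3 alone was higher, beside 15% of all genes, and none was lower, beside 11.8%, with medians of -0.20 and 0.15. The 7 members had no common direction in any comparison, and counts so near the background are no result about the group. With TMM scaling the background itself was 15.6% higher and 27.6% lower for RVC to S, 15.5% and 34.5% for RVT to S, and 8.1% and 18.4% for RVT to RVC, and ACTA2, TPM1, TPM2 and ACTN1 were then at least 2-fold lower in RVT than in S. Of the 3 members under the limit, ACTA2 differed at least 2-fold from S in RV (higher) and RVT (lower), TAGLN was at least 2-fold higher in RVT than in S and RVC, and CNN1 was lower in RVT than in both on 2 UMIs. These calls were not all kept by other settings. The log2 ratio of ACTA2 for RVT to S went from -1.26 to -0.94 with equal weight for every cell, that of TAGLN for RVT to S from 1.16 to 0.64 with TMM scaling and 0.94 with the median gene at 0, and that of TAGLN for RVT to RVC from 1.43 to 0.88 in cells without a cycle-gene UMI.

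**Figure D3:**
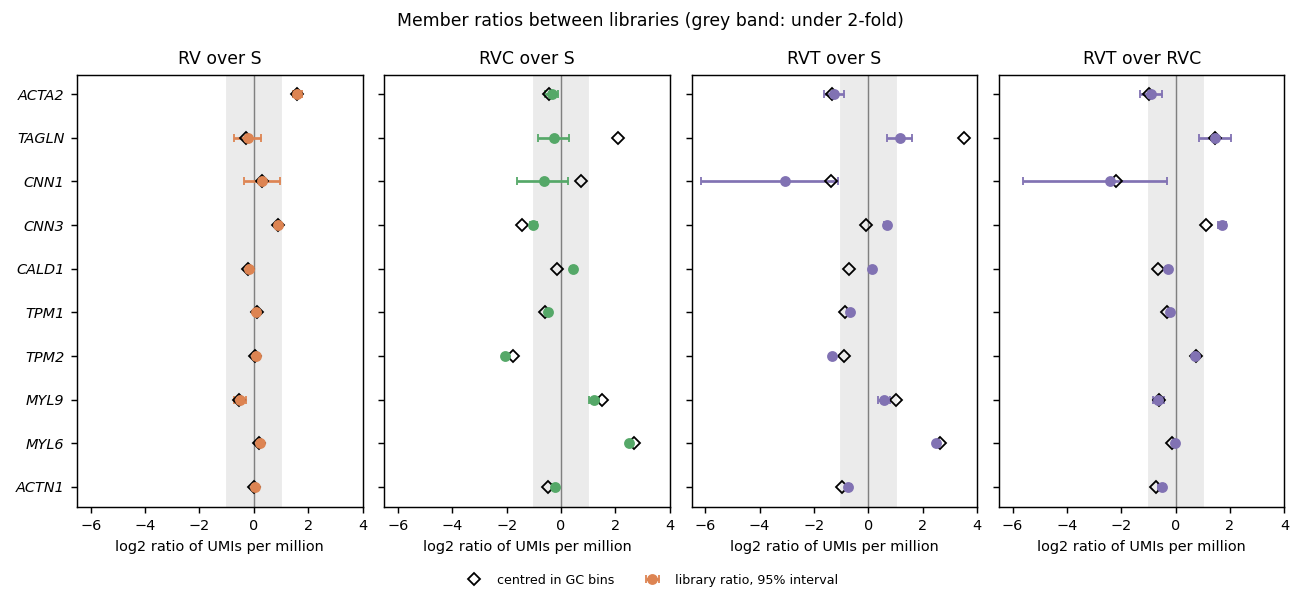
Log2 ratios of CPM of each member in the 4 comparisons; filled points are library ratios with 95% intervals, open diamonds the same ratios centred on genes of like GC content, and the grey band marks differences under 2-fold. In RV over S only ACTA2 lies outside the band, at 1.60, and filled and open points coincide; in RVC and RVT over S they part for TAGLN, CNN1, CNN3 and CALD1, and MYL6 lies at 2.51 and 2.49.

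A fixed list of 55 related genes placed the members in their wider machinery, and 38 of them reached the same mean of 10 CPM. From S to RV, none of the 38 differed 2-fold, beside 1.92% of all genes at least 2-fold higher and 1.24% at least 2-fold lower. Their median log2 ratio was 0.24, beside 0.02 for all genes. Under that limit, MYLK was 2.71-fold (2.25 to 3.28) and SMTN 2.07-fold (1.87 to 2.30) higher in RV than in S. MYH14, also under it, was 6.56-fold lower (4.00 to 11.4). With no filter on level, 7.2% of genes were at least 2-fold higher and 5.6% lower. From S to RVC, 13 of the 38 were higher (34.2%) and 9 lower (23.7%), from S to RVT 10 were higher (26.3%) and 9 lower (23.7%), and from RVC to RVT 3 were higher (7.9%) and 5 lower (13.2%). Over all genes 22.5% were higher and 23.2% lower for RVC to S, 28.5% and 24.3% for RVT to S, and 15% and 11.8% for RVT to RVC. These shares are the background of each role below, apart from counts under other scalings. In the same order the shares of all genes were 15.6% and 27.6%, 15.5% and 34.5%, and 8.1% and 18.4% with TMM scaling. Centred in GC bins they were 16.5% and 22.5%, 21.7% and 23.5%, and 10.3% and 14.2%. With TMM scaling 9 of the 38 were higher and 10 lower for RVC to S, 4 and 15 for RVT to S, and 1 and 9 for RVT to RVC. Many calls also moved on centring in GC bins, so the centred log2 ratio is given where it ends the call of a gene named here. ACTB and ACTG1 encode the cytoplasmic actins, which build most filaments of non-muscle cells. ACTB was at 1122, 1580, 1303 and 524.7 CPM in the order S, RV, RVC, RVT, and ACTG1 at 1529, 1599, 929.0 and 771.3 CPM. ACTB was thus at least 2-fold lower in RVT than in S (log2 -1.10) and RVC (-1.31), while ACTG1 stayed under 2-fold for RVT to S, but reached it with TMM scaling, with the median gene at 0, and centred in GC bins (-1.45, and -1.21 for RVC to S). TAGLN2, a transgelin of non-muscle cells, had 355.2, 472.2, 729.3 and 331.9 CPM in that order, with log2 ratios of 1.04 for RVC to S, which was under 1 with TMM scaling, and -1.14 for RVT to RVC.

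Of the 5 measured myosin II chains, 4 were at least 2-fold higher in RVC than in S and 3 in RVT, and none was lower. MYH9, the heavy chain of non-muscle myosin IIA, was at 23.6, 31.9, 77.0 and 48.5 CPM, with log2 ratios to S of 0.43, 1.71 and 1.04. MYL6B (1.26) and MYH10 (1.22) came next in RVC, and MYL12A (1.03) and MYH10 (1.02) in RVT. Centred in GC bins, the counts were 2 of 5 in RVC and 1 of 5 in RVT, with MYH9 at 1.48 and 0.82, MYH10 at 0.81 and 0.51, MYL12A at 0.68 and 0.43, and MYL6B at 1.69 and 1.07. With TMM scaling they were 3 in RVC and 0 in RVT, so the 3 calls of RVT rest on the scaling. Among the 6 measured regulators of myosin, PPP1CB, a catalytic subunit of the phosphatase that acts on the regulatory light chain, was at 43.5, 37.5, 192.5 and 358.3 CPM. PPP1CB shares bases with SPDYA on the same strand, and what this adds to its counts was not tested. ROCK2 and ROCK1, kinases downstream of RHOA, had log2 ratios of RVT to S of 2.13 and 1.15, and ROCK2 one of 1.55 for RVT to RVC. Centred, ROCK1 was at 0.30 and ROCK2 at 1.52 for RVT to S, and with TMM scaling ROCK2 and PPP1CB were still at least 2-fold higher and ROCK1 was not.

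Of the 11 measured crosslinkers and adhesion proteins, 4 were higher and 4 lower in RVC than in S, and 2 higher and 3 lower in RVT. Centred in GC bins these counts were 4 and 1 in RVC and 1 and 1 in RVT, and with TMM scaling 3 and 4, and 0 and 6. VCL, the vinculin of focal adhesions, was at 22.3, 41.8, 151.5 and 59.2 CPM, and CSRP2 had a log2 ratio of 2.03 for RVC to S. VCL and PDLIM5 had log2 ratios of RVT to S of 1.41 and 1.36, which were 0.75 and 0.62 when centred. On the other side PDLIM7 was at 99.3, 109.0, 6.89 and 7.36 CPM, and ZYX (log2 -1.38 and -1.50 for RVC and RVT to S), FLNA (-1.36 in RVC) and ACTN4 (-1.47 in RVT) were lower as well. Their transcript ends are rich in GC, and only PDLIM7 stayed at least 2-fold lower on centring, at -1.47 for RVC to S instead of -3.85 and -1.40 for RVT to S. Centred, ZYX was at -0.01 and 0.20, ACTN4 at 0.22 in RVT, and FLNA turned to 1.02 in RVC. From RVC to RVT, CSRP2 (-1.89) and VCL (-1.36) were lower.

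Of the 10 proteins of actin turnover, 3 were higher and 5 lower in RVC than in S, and 2 and 5 in RVT. Centred, the counts were 3 and 6, and 2 and 5, and with TMM scaling 2 and 6, and 2 and 5. PFN1, profilin, which feeds actin monomers to growing filament ends, was at 2268, 2653, 287.9 and 246.8 CPM. DSTN, destrin, which severs filaments, stood at 651.3, 420.3, 80.9 and 193.2 CPM, and CAPZB, a capping subunit, had log2 ratios of -1.64 and -1.88 for RVC and RVT to S. CFL1, cofilin, had a log2 ratio of RVT to S of -1.74. TMSB4X, thymosin beta 4, which holds monomers back, stood at 476.7, 460.5, 2565 and 1492 CPM, LIMA1 had log2 ratios of 1.78 and 2.79, and TMSB10 was 1.13 in RVC and -1.26 for RVT to RVC. DSTN (1.26) and LIMA1 (1.01, centred 0.64) were higher in RVT than in RVC, though with TMM scaling neither was so by 2-fold, nor TMSB10 in RVC.

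The transcription factors of the contractile program were scarce, and none of the 4 reached a mean of 10 CPM. SRF, serum response factor, was at 6.65, 4.68, 8.90 and 12.1 CPM. MRTFA and MRTFB are its actin-sensing co-activators. MRTFA was at 2.44, 2.21, 2.62 and 1.94 CPM, and MRTFB 2.43, 2.35, 8.29 and 12.97 CPM. MYOCD, myocardin, the co-activator typical of smooth muscle, had 1 UMI in S, none in RV, 0.213 CPM in RVC and 9.18 CPM in RVT. Of the markers of smooth muscle and pericytes, LMOD1, SYNPO2, DES and ACTG2 were at most 0.316 CPM in any library, MYH11 reached 1.92 CPM in RVC and PDGFRB 1.49 to 7.67 CPM, and the 8 markers together summed to 3.59 to 11.4 CPM. Of the 8, which also include RGS5 and NOTCH3, 1, 1, 3 and 2 reached 1 CPM in the order S, RV, RVC, RVT. The 8 fibroblast markers summed to 0.957 in S and 0.898 in RV against 188.7 CPM in RVC and 38.2 in RVT, COL3A1 making up most of it in RVC, and their part in the member values was not tested. Endothelial and leukocyte markers summed to at most 1.40 CPM in any library, and epithelial markers to between 0.122 and 11.5 CPM.

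**Figure D4:**
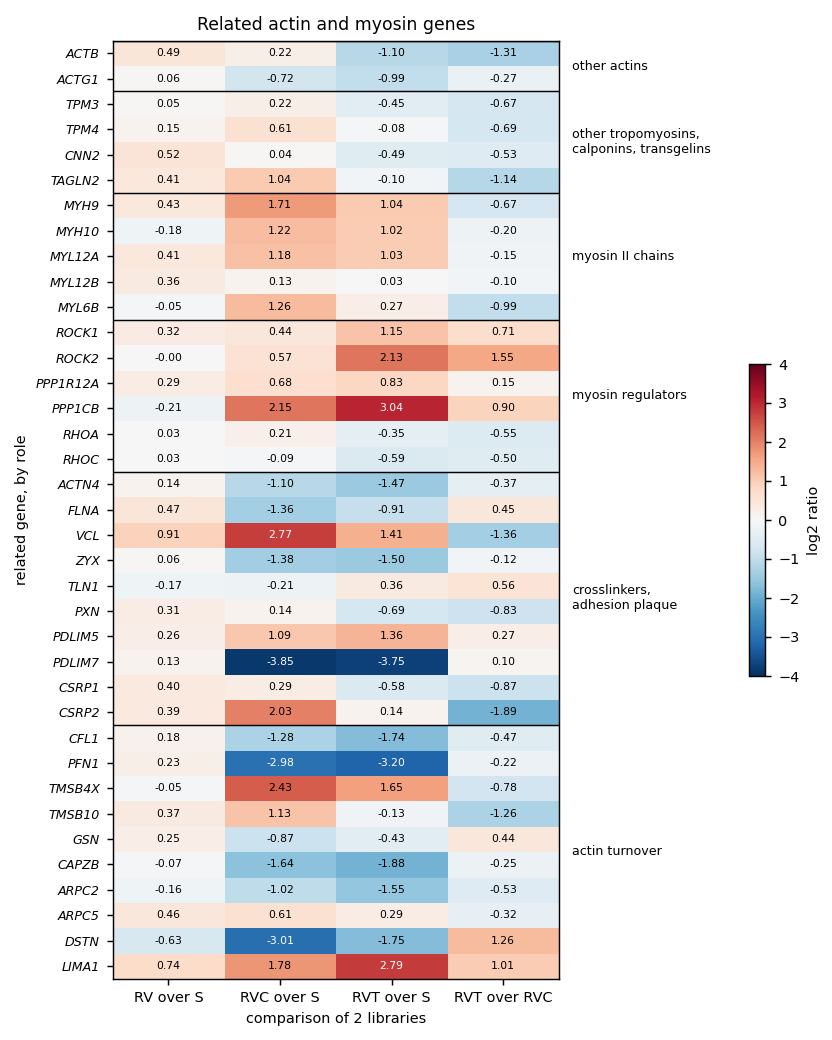
Log2 ratios of CPM for related genes with a mean of 10 CPM or more (1 is not shown), ordered by role and with 1 column for each comparison of libraries; blue is lower and red higher, and the printed numbers are the ratios. The RV over S column runs from -0.63 for DSTN to 0.91 for VCL, whereas RVC over S runs from -3.85 for PDLIM7 to 2.77 for VCL.

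Between cells of the same library the members went together only in part. Over the 45 pairs the median Pearson correlation was 0.014, 0.001, 0.013 and 0.017 in the order S, RV, RVC, RVT. In S, 5 pairs reached 0.1, namely CNN3 with TPM1 (0.29), TPM1 with MYL6 (0.24), TPM2 with MYL6 (0.21), TPM1 with TPM2 (0.15) and TPM1 with MYL9 (0.12). In RV there were 2, CNN3 with TPM1 (0.20) and TPM2 with MYL6 (0.14), and in RVC and RVT none, the highest being 0.09 and 0.08. Cells were not thinned for these correlations and differ in depth, with quartiles of 7114 and 10750 UMIs in S and 2618 and 5566 in RVC, and the shallower libraries were RVC and RVT. The 4 members known from smooth muscle (ACTA2, TAGLN, CNN1 and MYL9) were too scarce for their sharing of cells to be read, since at least 1 of them was found in 145 to 298 thinned cells per library and 2 or more in 0 to 5.

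**Figure D5:**
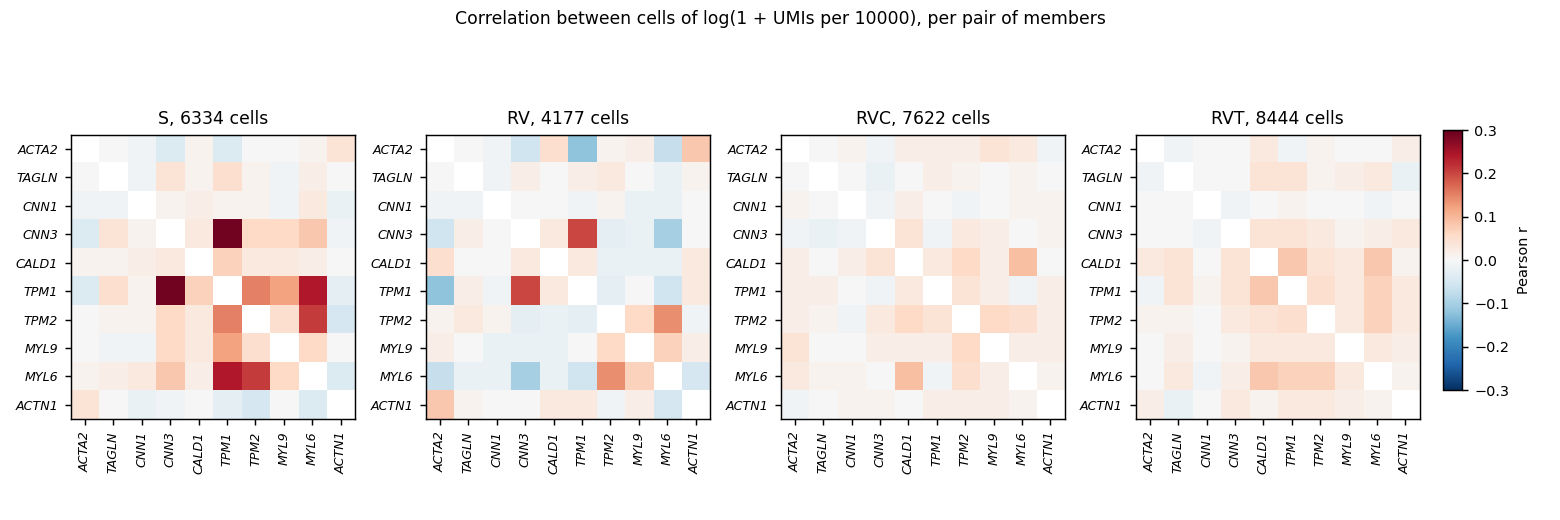
Pearson correlation between cells for each pair of members, with both axes listing the 10 members and a panel per library; red is positive, blue negative, and the colour scale ends at 0.3. In the S panel TPM1 pairs with CNN3, TPM2, MYL9 and MYL6 at 0.12 to 0.29, and TPM2 with MYL6 at 0.21. RV keeps CNN3 with TPM1 at 0.20 and TPM2 with MYL6 at 0.14, and RVC and RVT stay under 0.1.

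By the fixed rule, the genes most like the summed members in S were KRT81 (0.55), IGFBP6 (0.46), HCFC1R1 (0.42), SH3BGRL3 (0.42) and C19orf33 (0.41). In RV they were CD63 (0.31), LGALS1 (0.31), S100A6 (0.28), S100A10 (0.24) and S100A13 (0.23), in RVC S100A6 (0.28), LGALS1 (0.27), CD63 (0.24), SRP14 (0.23) and TMSB10 (0.22), and in RVT B2M (0.40), SRP14 (0.35), MGST3 (0.30), SKP1 (0.29) and PRDX1 (0.27). Without MYL6 in the sum, the highest values in RV, RVC and RVT were 0.19 with ENO1, 0.11 with MMP2 and 0.16 with THBS1, all lower than with MYL6, and in S KRT81 was again highest at 0.48.

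In S, TPM1 and CNN3 were split along KRT81, a hair keratin, in classes of thinned cells chosen after this correlation was seen. TPM1 had a correlation of 0.61 with KRT81, 0.50 with KRT7, 0.48 with SPANXB1 and 0.47 with CAV1, and CNN3 had 0.33 with KRT81 and 0.31 with CAV1. In S cells with no KRT81 UMI after thinning, 56.0% of the library, TPM1 stood at 78.1 CPM (75.1 to 81.3), against 269.3 in cells with 1 or 2 UMIs and 398.3 (388.7 to 408.1) in cells with 3 or more, a 5.10-fold range (4.87 to 5.34). CNN3 was 4.23-fold higher in the top class (3.78 to 4.74), at 60.6 against 14.3 CPM. MYL9 was 2.31-fold higher (1.88 to 2.85), MYL6 1.64-fold (1.60 to 1.68) and TPM2 1.31-fold (1.27 to 1.34). The scarce TAGLN and CNN1 were 2.80-fold (1.66 to 4.80) and 2.15-fold (1.04 to 4.52) higher. The ratio was 0.957 for ACTA2 (0.756 to 1.21) and 1.06 for CALD1 (1.00 to 1.12), and ACTN1 was 1.40-fold lower. A split planned beforehand compared unthinned S cells with and without a KRT81 UMI. There the ratio was 4.68 for TPM1 (4.43 to 4.95) and 3.465 for CNN3 (3.06 to 3.94). It was 1.26 for ACTA2 (1.03 to 1.545), 3.39 for TAGLN (1.86 to 6.68) and 1.24 for CNN1 (0.615 to 2.63). A further planned split was by the noncoding RNA LINC01419. In S cells with its UMIs, TPM1 was 1.55-fold lower (1.50 to 1.61), CNN3 1.37-fold and MYL9 1.33-fold lower than in cells without. The scarce CNN1 was 2.59-fold lower (1.31 to 5.135), and ACTA2 was 1.26-fold higher (1.01 to 1.575). MYL6, TPM2 and CALD1 were lower by less, and the intervals of TAGLN and ACTN1 spanned 1. In RV the split by thinned KRT81 UMIs was gone for TPM1, with 215.8 CPM in cells without KRT81 and 226.2 in cells with 3 or more, a ratio of 1.05 (0.990 to 1.11), and small for CNN3, with 1.22 (1.10 to 1.35). In RVT, TPM1 was at 115.5 CPM in 6672 cells without KRT81, 183.4 in 898 cells with 1 or 2 UMIs and 388.6 in 28 cells with 3 or more, a range of 3.36-fold (2.27 to 4.82). The ratio of the outer classes was 2.22 for TPM2 (1.52 to 3.12), 1.63 for MYL6 (1.47 to 1.795) and 1.81 for CNN3 (0.727 to 3.75).

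The near-equal library levels of TPM1 in S and RV therefore joined unlike classes. In cells without a KRT81 UMI after thinning, RV exceeded S 2.76-fold for TPM1 (2.64 to 2.89) and 3.93-fold for CNN3 (3.55 to 4.37). In cells with 3 or more, RV was 1.76-fold lower for TPM1 and the ratio for CNN3 was 1.13 (1.01 to 1.27). These classes do not hold KRT81 equal between S and RV, since thinning can leave no KRT81 UMI in a cell that holds some. The variance of TPM1 over its mean in thinned cells was 1.47 in S and 1.17 in RV. For MYL9 the ratio of RV to S was 1.17 (0.948 to 1.44) in cells without KRT81 and 0.339 (0.220 to 0.505) in cells with 3 or more. KRT81 itself was at 1176 CPM in S, 597.4 in RV and 93.5 in RVT, with 1 UMI in RVC.

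The last division was by UMIs of cell-cycle genes. Cells rich in G2/M transcripts were those with UMIs of at least 3 genes of a G2/M list after thinning to 1500 UMIs, and cells without cycle-gene UMIs those with none of that list or of a G1/S list. These are ranges of a transcript count and were not shown to be cycle states, and their sizes move with the summed level of the G2/M list, which was 956.7, 1200, 2275 and 674.8 CPM in the order S, RV, RVC, RVT. The former made up 15.4% of S, 21.4% of RV, 46.5% of RVC and 5.53% of RVT, and the latter 32.9%, 23.9%, 5.83% and 46.3%. TPM1 was higher in G2/M-rich cells than in those without cycle-gene UMIs in all libraries, 1.51-fold in S (1.43 to 1.59), 1.58-fold in RV (1.49 to 1.68), 1.21-fold in RVC (1.05 to 1.40) and 1.66-fold in RVT (1.47 to 1.87). CNN3 was higher 2.19-fold in S (1.92 to 2.51), 2.21-fold in RV (1.97 to 2.48) and 1.25-fold in RVT (1.01 to 1.54), while in RVC the ratio was 0.696 (0.495 to 1.00). ACTA2 went the other way, 2.01-fold lower in G2/M-rich S cells and 1.64-fold lower in G2/M-rich RV cells, and in RVC (0.713, 0.386 to 1.44) and RVT (0.556, 0.145 to 1.52) the intervals spanned 1. MYL6 was lower in G2/M-rich cells of S (1.25-fold), RV (1.32-fold) and RVC (1.24-fold) and 1.12-fold higher in RVT. ACTN1 was 1.34-fold higher in G2/M-rich RV cells (1.20 to 1.50) and 1.44-fold in RVT (1.08 to 1.88), and in S and RVC its intervals spanned 1. The scarce TAGLN was 2.79-fold higher in G2/M-rich S cells (1.41 to 5.73), and in RV, RVC and RVT its intervals spanned 1.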

How the data were processed

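Cells of the A375 line were captured with the 10x Genomics v2 kit. Per the labels' processing notes, reads were demultiplexed with bcl2fastq 2.20.0.422 and processed with Cell Ranger on GRCh38. The Cell Ranger version, the gene annotation and the use of strand are not given in the sources used here. The authors deposited UMI counts per gene and cell barcode, not normalized.

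Barcodes with at least 500 genes and at most 20% mitochondrial UMIs were kept, and top-scoring putative doublets were removed at 0.8% per 1000 barcodes (Scrublet in scanpy 1.11.5, whose own threshold marked only 1 to 18 barcodes per library). This left 6334, 4177, 7622 and 8444 cells (S, RV, RVC, RVT), with 58499430, 52360882, 32813253 and 25283593 UMIs. UMI counts were summed per library and scaled to CPM, with exact Poisson, exact conditional ratio and Clopper-Pearson intervals (scipy 1.17.1, numpy 2.4.6, pandas 2.3.3, Python 3.11.15). These cover counting error only. As every condition is 1 library, conditions could not be tested against each other, and a gene was counted as different at 2-fold or more among genes with a mean of 10 CPM. A count of 0 was read as allowing 3 UMIs. Cell classes by CDKN1A, KRT81 and cycle-gene UMIs, and shares given as thinned, used cells thinned to 1500 UMIs, which left out 398 cells of RVC and 846 of RVT. Other shares and counts of cells used unthinned cells. Pearson correlations used log(1 + UMIs per 10000). GC content was taken from the last 500 bases of the longest GENCODE 29 transcript, in 20 bins. Promoter windows came from RefSeq (GRCh38.p14). TMM factors were computed with edgeR 4.0.16 in R 4.3.3, and figures with matplotlib 3.10.9. The calculations of ratios with their intervals and of correlations were tested on simulated data.

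The members and gene lists were chosen with earlier results of these data known. All members are named, as are related genes that differed at least 2-fold, up to 3 per role and direction, ACTB, ACTG1, MYH9, SRF, MRTFA, MRTFB and MYOCD, and the 5 genes most correlated with the summed members in each library. Of the related genes that reached 10 CPM, the values of 1 are not reported here, and those under that limit were not described apart from the 4 of transcription. Other named genes, among them CDKN1A, FAS and the genes most correlated with single members, were chosen after their values were seen. Alternatives were other cell filters, scalings, weights, low-level limits, cycle-gene UMIs, thinning and correlation measures. Leaving out shared barcodes, the classes by CDKN1A and by thinned KRT81 UMIs, correlations with single members and the further motifs were added after seeing the data.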

Additional observations from a re-analysis of the deposited data

How the results depend on the processing

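Of the 13 member log2 ratios of at least 1 in size, 142 of 143 values under 11 alternatives had the same sign and 135 were still at least 1. The exception in sign was CNN3 for RVC to S, at 0.04 in cells without a cycle-gene UMI. The others under 1 were CNN3 for RVC to S at -0.97 and ACTA2 for RVT to S at -0.94 with equal weight for every cell, MYL9 for RVC to S at 0.99 and TAGLN for RVT to S at 0.64 with TMM scaling, TAGLN for RVT to S at 0.94 with the median gene at 0, TPM2 for RVT to S at -0.90 in GC bins, and TAGLN for RVT to RVC at 0.88 without cycle-gene UMIs. Using all barcodes, at most 10% mitochondrial UMIs, no doublet removal or no shared barcodes moved none of the 40 member ratios beyond its counting interval, and a minimum of 1000 genes moved 3. The ratio of ACTA2 between RV and S stayed between 1.34 and 1.61 on the log2 scale. No median correlation over member pairs moved.

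The median over members did depend on scaling, partly because ACTA2 then passed the limit of 10 CPM in some settings. For RV to S it was 0.01 in cells without a cycle-gene UMI. For RVC to S it was -0.51 with TMM scaling, -0.49 with library sizes without ribosomal protein and mitochondrial genes, -0.40 with the median gene at 0, -0.47 centred in GC bins and -0.10 in cells without a cycle-gene UMI. For RVT to S the same settings gave -0.79, -0.36, -0.07, -0.70 and -0.21, and for RVT to RVC -0.54 with TMM scaling, -0.35 with the median gene at 0, -0.32 in GC bins and -0.48 without cycle-gene UMIs.

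Counts of members at least 2-fold apart were small and moved too, and are given with the share of all genes in brackets (with no filter, of the 16542 genes with a UMI in every library). For RV to S, 1 was higher (ACTA2) with TMM scaling (1.8%), without ribosomal protein and mitochondrial genes (1.9%), without cycle-gene UMIs (2.4%) and with no filter (7.2%). For RVC to S, 1 was higher with TMM scaling (15.6%) or a limit of 50 CPM (21.9%), and 1 lower with equal weight for every cell (23.2%), without cycle-gene UMIs (24.7%) or at 50 CPM (28.6%). For RVT to S, 2 were higher in GC bins (21.7%), without cycle-gene UMIs (29.7%) and with no filter (36.5%), and 4 were lower with TMM scaling (34.5%), 2 without ribosomal protein and mitochondrial genes (23.7%) or without cycle-gene UMIs (23.2%), 0 in GC bins (23.5%) and 3 with no filter (21%). For RVT to RVC, 2 were higher with no filter (24.9%) and 0 at 50 CPM (9.8%), and 1 was lower with TMM scaling (18.4%) or no filter (13.7%). In GC bins 16.5% and 22.5% of all genes were higher and lower for RVC to S, 21.7% and 23.5% for RVT to S, and 10.3% and 14.2% for RVT to RVC. Without ribosomal protein and mitochondrial genes the split for RVT to RVC was 20.3% and 9.8%, and with the median gene at 0 it was 11.2% and 14.8%. No paired analysis was possible because each condition was 1 library and no result comes from a test. Levels of TAGLN and CNN1 rest on 2 to 84 UMIs per library, and RVC and RVT are the shallower libraries.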
